A study of Xenopus tropicalis with 3 samples.

Results

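Cilia are assembled and maintained by intraflagellar transport (IFT), by the BBSome and by the transition zone, and 44 genes of these systems among the 17647 genes of a transcriptome of the Xenopus tropicalis animal cap are described here. The 44 were found by gene symbol: symbols starting with ift or bbs and a digit, with nphp or with tctn, and a fixed set of genes that carry other names, such as wdr19, ttc26, dync2h1 and mks1. Kinesins were left out. The rule uses no measured value, though it was written with earlier results of these data known. Of the names in the rule, arl3 was not in the table under that symbol, and no transcript of RefSeq's ift172 or tctn3 was matched, so these genes are not analysed here as members. The animal cap is the prospective epidermis, dissected by hand from the embryo, and its total RNA was sequenced after removal of ribosomal RNA at the gastrula stage NF10.5, the neurula stage NF16 and the tailbud stage NF24. The labels give 3 biological replicates per stage and name no genotype, strain or added agent, and they do not say how many embryos were pooled in a replicate. The study follows expression and splicing across these stages.

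IFT carries building blocks along the microtubules of a cilium in trains made of 2 protein complexes. IFT-B is needed for transport from the base to the tip, which kinesin-2 powers, and IFT-A for the return, which the dynein-2 motor powers, as well as for the entry of some membrane proteins. The BBSome is a coat-like complex that rides on these trains and moves membrane proteins out of the cilium, and its assembly needs a set of chaperonin-like BBS proteins. At the base of the cilium, the MKS and NPHP modules of the transition zone link the microtubules to the membrane and act as a gate. In the Xenopus epidermis these systems serve the multiciliated cells, whose beating cilia move mucus over the embryo, while cells with a single cilium elsewhere in the embryo use the same machinery.

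Each value is FPKM (fragments counted per length of transcript and per size of the library, a level corrected for length) summed over the transcripts of a gene, and each is the authors' mean over the replicates of a stage. The table has no value per replicate and no read count, so no spread, interval or test between stages can be given, the depth is unknown and no difference below has a replicate check. A gene is called higher or lower where log2(FPKM + 1) differs by at least 1 between the stages, a fixed rule of size and not a test, and all log2 differences are on this scale and run later minus earlier stage. In bulk tissue, more cells of a type and more RNA per cell cannot be told apart. The 11771 genes with at least 1 FPKM at 1 stage or more were compared, and all 44 members passed this filter.

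All 9 epidermal markers were above 0 at every stage. As the same held for the markers of other tissues below, this is no check of the tissue label. The 9 epidermal markers had summed levels of 2272, 35725 and 35320 FPKM at NF10.5, NF16 and NF24. The largest of these were krt5.7 (690, 17079 and 22588 FPKM) and krt (611, 12721 and 7363 FPKM). The 10 markers of multiciliated cells summed to 198, 3112 and 2249 FPKM in that order. Of these sums, tuba1a alone held 14.4, 2287 and 1545 FPKM. At NF24, 4 of the 10 were above their NF16 value, against 58.6% of all genes, and 6 were below it. Markers of other tissues were present too, with 6 of 10 mesoderm and muscle markers in the table (34.1, 249 and 327 FPKM in sum), 9 of 9 neural (1018, 160 and 92.8 FPKM), 6 of 7 endoderm (101, 12.5 and 11.97 FPKM) and 6 of 6 neural crest markers (74.8, 253 and 261 FPKM). The neural crest sum was mostly msx1 (56.9, 221 and 232 FPKM). The neural sum was mostly sox3 (793, 89.3 and 28.1 FPKM) and sox2 (199, 37.3 and 22.1 FPKM). By the rule of size, 5 of the 9 neural markers were higher at NF16 against NF10.5, against 20.9% of all genes, and 3 lower, against 39.0%. Their median log2 difference was 1.17, though 4 of the 9 lay below 1 FPKM at NF10.5 and were compared only because they were higher later. None of the markers in the table was at 0 at any stage, and the part of these tissues in the values below was not tested.

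The transport and BBS genes were mostly more abundant in the neurula than in the gastrula cap, and a few members were called lower. Between NF16 and NF10.5, 22 of the 44 members were called higher, against 20.9% of all genes compared, and 4 were called lower, against 39.0%. The members' median log2 difference was 0.98, against -0.57 over all genes. At NF16, 37 of 44 members had a value above that at NF10.5, as did 38.0% of all genes compared. Among the 4 lower members were bbs10, nphp4 and ttc21b. The 44 genes summed to 600.0 FPKM at NF10.5, 1174 FPKM at NF16 and 1004 FPKM at NF24.

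From the neurula to the tailbud stage few members moved by the rule. Between NF24 and NF16, 0 members were called higher, against 6.91% of all genes, and 1 was called lower, against 4.84%. This member was bbs12. The median difference was -0.17, against 0.12 over all genes, and 34 of 44 members were below their NF16 value at NF24 by some margin, however small. The other 10 members were above it, as were 58.6% of all genes compared. Over the whole span, NF24 against NF10.5, 20 members were called higher, against 25.4% of all genes, and 6 were called lower, against 36.9%, with a median of 0.75 against -0.44. All 3 comparisons draw on the same 3 means, so they are not independent of each other.

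**Figure D1:**
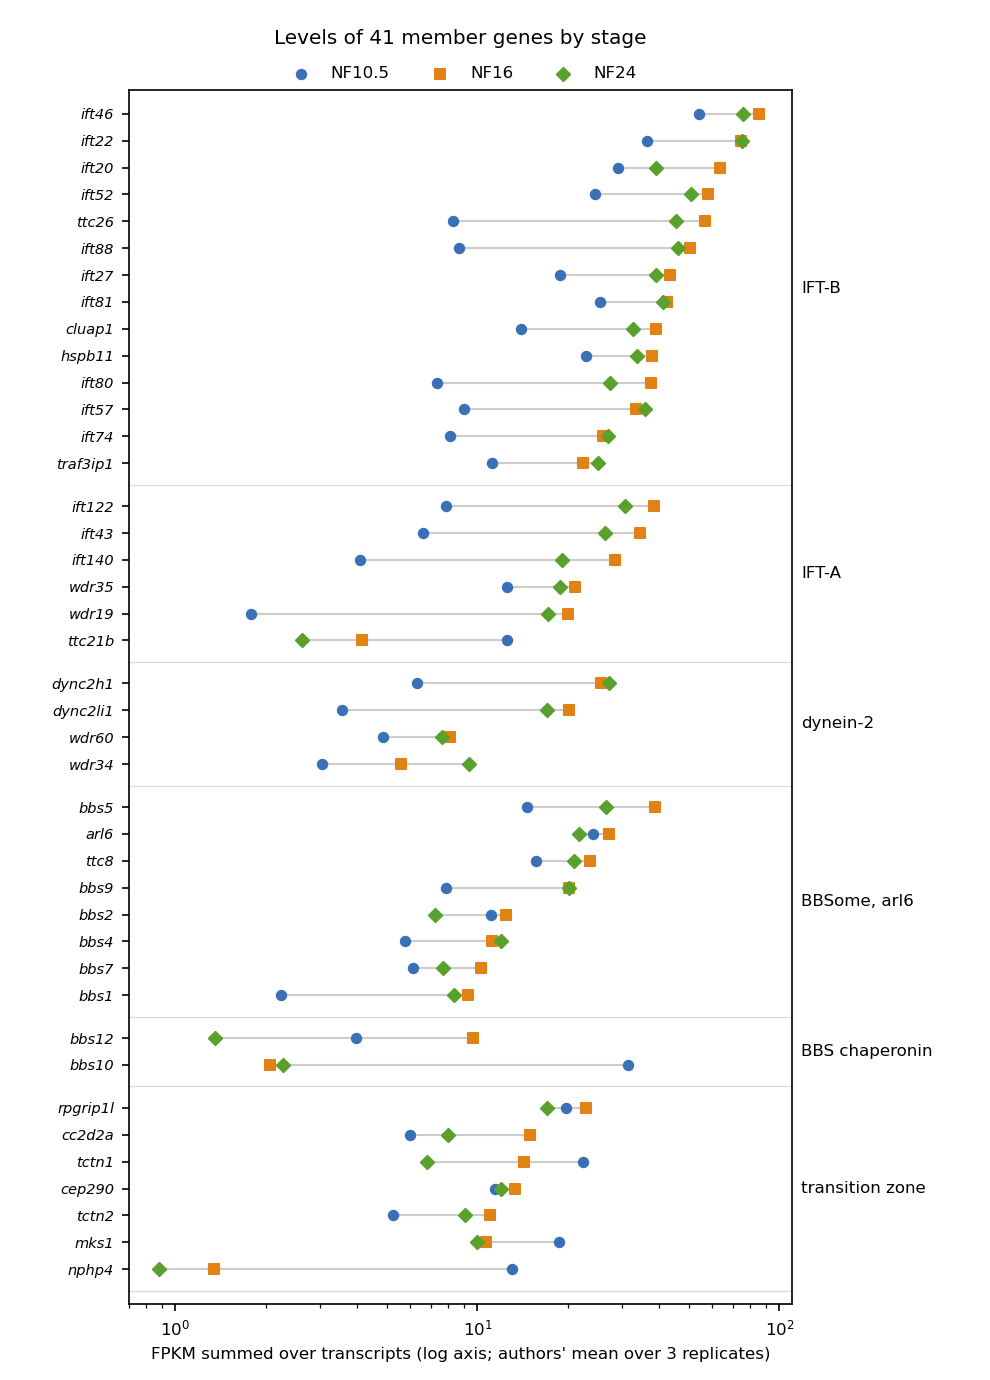
FPKM of 41 of the 44 genes at NF10.5 (circles), NF16 (squares) and NF24 (diamonds) on a log axis, grouped by role and sorted by the NF16 level, with a line from the lowest to the highest stage. The 14 IFT-B genes lie between 22.3 and 85.5 FPKM at NF16, all to the right of their own NF10.5 value, whereas bbs10, nphp4 and ttc21b lie to the left of theirs.

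IFT-B had the largest summed level of the role groups at each stage. All 14 measured IFT-B genes had higher values at NF16 than at NF10.5, as did 38.0% of all genes compared. Called higher were 10 of the 14, against 20.9% of all genes. The 14 log2 differences lay between 0.65 and 2.63, with a median of 1.19. Their levels lay between 7.37 FPKM (ift80) and 54.0 FPKM (ift46) at NF10.5, between 22.3 FPKM (traf3ip1) and 85.5 FPKM (ift46) at NF16, and between 25.2 FPKM (traf3ip1) and 75.8 FPKM (ift46) at NF24. The highest gene thus exceeded the lowest 7.33-fold at NF10.5, 3.83-fold at NF16 and 3.01-fold at NF24, so the levels of the complex's genes lay closer together at the later stages. Between NF24 and NF16, 0 of the 14 were called, against 6.91% of all genes higher and 4.84% lower, with differences between -0.69 and 0.17.

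The largest differences in IFT-B belonged to genes of low gastrula level. The gene ttc26 encodes IFT56, needed in Chlamydomonas and zebrafish for the import of motility proteins, and it had 8.30 FPKM at NF10.5, 56.6 FPKM at NF16 and 45.5 FPKM at NF24. For NF16 against NF10.5 its log2 difference was 2.63. The scaffold subunit gene ift88, whose mouse mutants have few or short cilia, had 8.67, 50.7 and 46.2 FPKM at the 3 stages in order, a log2 difference of 2.42 at NF16 against NF10.5. The gene ift80 had 7.37, 37.4 and 27.4 FPKM, with a difference of 2.20 in the same comparison.

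Other IFT-B genes were already well represented in the gastrula cap. The IFT-B core gene ift46 had 54.0, 85.5 and 75.8 FPKM at NF10.5, NF16 and NF24 and was not called at NF16 (log2 difference 0.65). The small GTPase-like gene ift22 had 36.5, 74.8 and 75.3 FPKM, and its difference of 1.02 at NF16 against NF10.5 lay just inside the rule. The gene ift20, whose protein also resides at the Golgi apparatus, had 29.2, 63.6 and 39.0 FPKM. It was called higher at NF16 (1.09) and was not called at NF24 against NF10.5 (0.40), the lowest value of the group in that comparison. The core gene ift52 had 24.5, 58.2 and 50.9 FPKM and was called at NF16 (1.21).

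Some subunits are known to bind each other as pairs. IFT25 (hspb11) and IFT27 form a heterodimer, and across the 3 stages in order hspb11 had 22.9, 37.7 and 33.8 FPKM and ift27 had 18.7, 43.5 and 39.1 FPKM. The tubulin-binding pair IFT74 and IFT81 had 8.12, 25.96 and 27.06 FPKM for ift74 and 25.5, 42.4 and 41.0 FPKM for ift81. The log2 difference at NF16 against NF10.5 was 1.56 for ift74 and 0.71 for ift81, so ift74 was called and ift81 was not, and likewise ift27 was called (1.17) and hspb11 was not (0.70). These splits depended on the processing. Both ift81 and hspb11 were called under median-of-ratios scaling (1.13 and 1.12) and quantile normalization (1.27 and 1.25). On its most abundant transcript alone, ift27 was not called (0.89). The partners cluap1 (IFT38) and ift57 had 13.97, 39.0 and 32.7 FPKM for cluap1 and 9.02, 33.6 and 35.8 FPKM for ift57, and both were called at NF16 (1.42 and 1.79). The gene traf3ip1 (IFT54) had 11.2, 22.3 and 25.2 FPKM, and lay just outside the rule at NF16 (0.94) and inside it at NF24 against NF10.5 (1.11).

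IFT-A genes had a lower median level than IFT-B at NF10.5 (7.22 against 16.3 FPKM) and the largest median difference of the role groups at NF16 against NF10.5, with ttc21b going the other way. Of 6 genes, 4 were called higher at NF16 against NF10.5, against 20.9% of all genes, and 1 lower, against 39.0%. The median log2 difference of the 6 was 2.19, and they summed to 45.3, 147 and 115 FPKM at NF10.5, NF16 and NF24. The gene wdr19 (IFT144), a core subunit, had the largest positive difference of all members: 1.77 FPKM at NF10.5, 19.99 FPKM at NF16 and 17.2 FPKM at NF24, a log2 difference of 2.92 at NF16 against NF10.5. The core subunit genes ift140 and ift122 had 4.08, 28.4 and 19.05 FPKM, and 7.86, 38.5 and 30.9 FPKM, with differences of 2.53 and 2.16. The gene ift43, a peripheral subunit, had 6.58, 34.4 and 26.5 FPKM (2.22).

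The peripheral subunit gene ttc21b (IFT139) ran against its complex. It had 12.5 FPKM at NF10.5, 4.14 FPKM at NF16 and 2.62 FPKM at NF24, log2 differences of -1.39 at NF16 and -1.90 at NF24 against NF10.5. At NF10.5 it stood beside wdr35 (IFT121) at the top of the IFT-A genes, and at the later stages it was the lowest of them. The gene wdr35 itself had 12.5, 21.0 and 18.8 FPKM and was not called (0.70 at NF16 against NF10.5). Without ttc21b the other 5 IFT-A genes lay within a 1.93-fold range at NF16, against 9.31-fold with it. Quantile normalization left ttc21b just short of the rule at NF16, at -0.97, and so did a pseudocount of 5, at -0.94.

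By the rule at NF16 against NF10.5, the dynein-2 genes split into motor and intermediate chains, a split that depended on scaling. The heavy chain gene dync2h1 had 6.29 FPKM at NF10.5, 25.6 FPKM at NF16 and 27.2 FPKM at NF24, and the light intermediate chain gene dync2li1 had 3.57, 20.2 and 16.95 FPKM. Both were called higher at NF16 against NF10.5, with log2 differences of 1.87 and 2.21. The genes of the intermediate chains, wdr60 and wdr34, were lower in level, with 4.85, 8.11 and 7.62 FPKM for wdr60 and 3.05, 5.60 and 9.34 FPKM for wdr34. Neither was called at NF16 (0.64 and 0.70), though both were under median-of-ratios scaling (1.01 and 1.05). Of the members, wdr34 had the largest positive difference between NF24 and NF16, 0.65, and it was called higher at NF24 against NF10.5 (1.35).

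The BBSome genes and arl6 moved in the same direction as IFT-B at NF16 but by less. All 8 had higher values at NF16 than at NF10.5, as did 38.0% of all genes compared. The log2 differences of the 8 lay between 0.15 and 1.67, with a median of 0.76. Of the 8, 3 were called higher, against 20.9% of all genes. These 3 were bbs1, bbs5 and bbs9. The gene bbs1, whose protein binds the GTPase ARL6, had 2.24 FPKM at NF10.5, 9.33 FPKM at NF16 and 8.37 FPKM at NF24 (1.67 at NF16 against NF10.5). The gene bbs5, a subunit with lipid-binding domains, had 14.6, 38.7 and 26.5 FPKM (1.35), and bbs9, a scaffold subunit, had 7.86, 20.1 and 20.03 FPKM (1.25).

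With the reported settings, the remaining BBSome genes were not called in any comparison. The genes bbs4 and bbs7 had 5.76, 11.2 and 11.9 FPKM, and 6.09, 10.3 and 7.72 FPKM, at NF10.5, NF16 and NF24, and ttc8 (BBS8) had 15.7, 23.5 and 20.9 FPKM. At NF24 against NF10.5 bbs4 lay just outside the rule (0.94) and was called under TPM (1.17) and quantile normalization (1.15). At NF16 against NF10.5, median-of-ratios scaling gave calls for bbs4 (1.23) and bbs7 (1.05), and quantile normalization gave one for ttc8 (1.13). The gene of the recruiting GTPase, arl6 (BBS3), was close to level across the stages at 24.2, 27.2 and 21.8 FPKM, and bbs2 had 11.1, 12.4 and 7.25 FPKM. At the gastrula stage arl6 thus stood highest among the 8, 10.8-fold above bbs1, while at NF16 bbs5 was highest and the range was 4.14-fold.

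The chaperonin-like genes, which assist BBSome assembly, followed neither IFT-B nor the BBSome. The gene bbs10 had 31.5 FPKM at NF10.5, 2.06 FPKM at NF16 and 2.27 FPKM at NF24, a log2 difference of -3.41 at NF16 against NF10.5, the largest fall of the 44. At NF10.5 it ranked above every BBSome gene, and at NF16 and NF24 below every one of them. The gene bbs12 had its highest value at NF16, with 3.97, 9.68 and 1.36 FPKM at the 3 stages, and it was called higher at NF16 against NF10.5 (1.10) and lower at NF24 against NF16 (-2.18). Most of the difference at NF16 lay outside the transcript XM_002941054.4, for which the log2 difference alone was 0.12. The third gene of this kind, mkks (BBS6), lies outside the rule and had 12.4, 10.7 and 18.3 FPKM, with no call in any comparison.

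**Figure D2:**
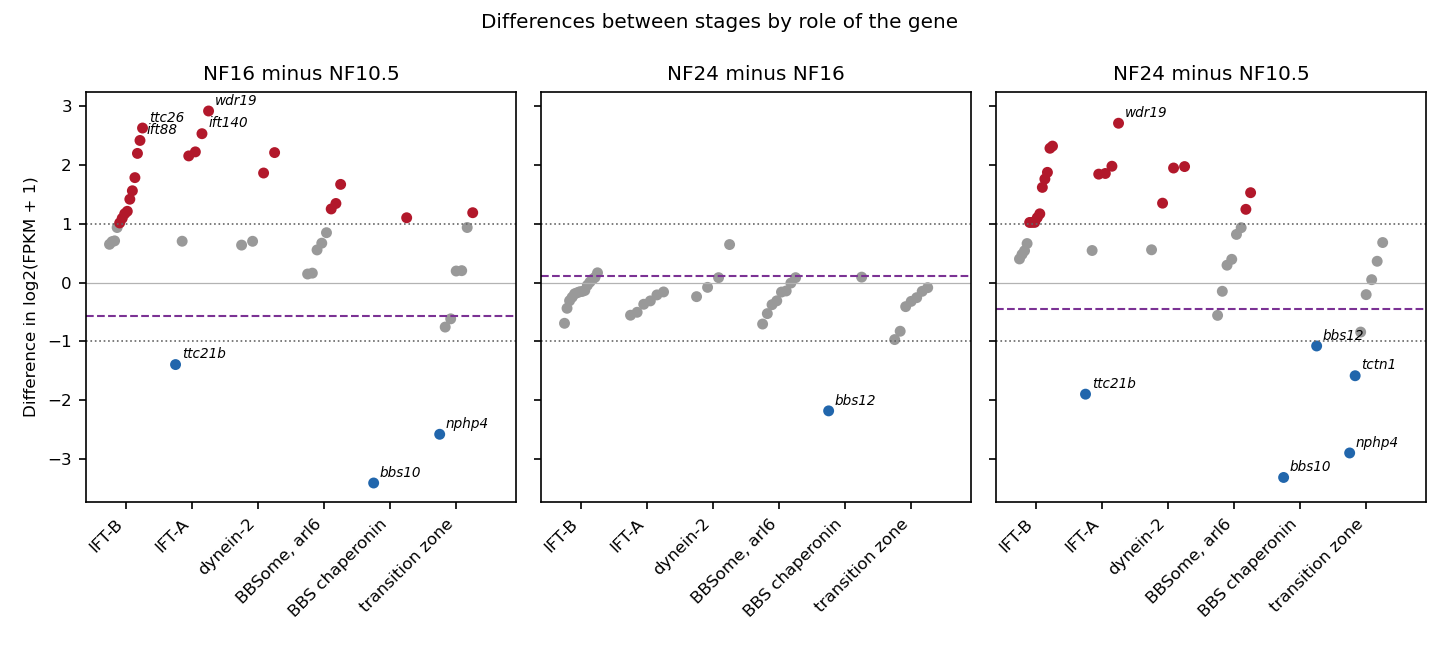
Difference in log2(FPKM + 1) of 41 members for NF16 minus NF10.5, NF24 minus NF16 and NF24 minus NF10.5, by role, with called genes in red (higher) and blue (lower), the rule of size at 1 and -1 as dotted lines and the median of all 11771 genes as a dashed line. In the first panel the IFT, dynein-2 and BBSome genes lie above 0 except ttc21b (-1.39), and the transition zone genes lie on both sides; in the middle panel bbs12 (-2.18) is the one called gene.

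The transition zone genes lay on both sides of 0. Of 8, 1 was called higher (cc2d2a) at NF16 against NF10.5, where 20.9% of all genes were, and 2 lower (nphp4 among them), where 39.0% of all genes were. Their median log2 difference of -0.21 lay above the -0.57 of all genes and below the 1.19 of IFT-B. They summed to 116 FPKM at NF10.5, 95.04 FPKM at NF16 and 71.2 FPKM at NF24. Their medians at the 3 stages were 15.8, 12.2 and 8.52 FPKM, while those of IFT-B were 16.3, 42.9 and 39.1 FPKM. As the rule defines them, the 2 groups therefore had like medians in the gastrula cap and were apart at the later stages. This difference could not be tested, and transition zone genes outside the rule are given further below.

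Within the NPHP module, nphp4 was called lower. The gene nphp4 had 13, 1.34 and 0.88 FPKM (-2.58), and it was the only member below 1 FPKM at any stage. The RefSeq gene table now lists 2 genes on chromosome 7, nphp4 and nphp4.2, and puts the transcript that carries 92.1% of the nphp4 value at NF10.5 under nphp4.2, so which of these copies the value stands for is uncertain. The gene rpgrip1l, whose protein binds the NPHP4 protein, had 19.7, 22.8 and 16.95 FPKM and was not called.

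Genes of the MKS module went separate ways. The gene cc2d2a had 5.98 FPKM at NF10.5, 14.9 FPKM at NF16 and 7.98 FPKM at NF24 and was called higher at NF16 (1.19), while the B9-domain gene mks1 had 18.6, 10.6 and 9.97 FPKM (-0.76, not called). The tectonic genes encode proteins of this module that face the outside of the membrane or lie within it, and the 2 in the table differed in order between the stages: tctn1 had 22.3, 14.2 and 6.78 FPKM, and tctn2 had 5.27, 11.01 and 9.06 FPKM. At NF10.5 tctn1 was thus the higher of the pair, and at NF24 tctn2 was. For NF24 against NF10.5 tctn1 was called lower (-1.58), and for NF24 against NF16 it lay just outside the rule (-0.97) and was called under median-of-ratios scaling (-1.13) and quantile normalization (-1.26). The gene cep290, which encodes a linker between microtubules and membrane, had 11.5, 13.3 and 11.9 FPKM. That value is a sum of 2 rows that carry the same transcript, with 7.58 and 3.89 FPKM at NF10.5.

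The design also asks about isoforms. Of the 44 members, 29 had 2 or more different transcripts in the table, and for 22 of these the same transcript led, by its share of the gene's FPKM, at all 3 stages. A switch was defined as a change of leader in which the new leader gained and the old one lost at least 30 percentage points where the gene reached 10 FPKM in each of the stages compared. By this rule 0 members switched, among 11 examined for NF16 against NF10.5, 21 for NF24 against NF16 and 9 for NF24 against NF10.5. Each of these counts includes cep290, whose 2 rows carry the same transcript and which therefore could not switch. Shares of switches and of constant leaders over all genes were not computed, so these counts cannot be called particular to the members. How the authors' processing divided reads between overlapping transcripts cannot be checked from FPKM.

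Smaller shifts of transcript share were present in IFT-B genes. In ift22, the transcript XM_012956852.2 made up 27.4%, 56.4% and 42.6% of the gene at the 3 stages in order, while NM_001011271.1, the leader at NF10.5 with 32.8%, had 15.8% at NF24. In level, the first had 9.997 FPKM at NF10.5, 42.2 FPKM at NF16 and 32.1 FPKM at NF24, and the second was near constant at 11.96, 14.1 and 11.9 FPKM. The higher level of ift22 at NF16 thus lay mostly in 1 of its 7 transcripts.

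In ift20 the same kind of split was seen between its 2 transcripts. NM_001007901.1 had 16.7 FPKM at NF10.5, 51.6 FPKM at NF16 and 32.7 FPKM at NF24, and XM_012956808.2 had 12.5, 11.99 and 6.31 FPKM. The share of the first was 57.1%, 81.1% and 83.8% at the 3 stages. In traf3ip1 the leading transcript XM_012970522.2 held 77.1%, 47.9% and 64.8% at the same stages, the largest change of share at NF16 among the genes examined (-29.2 points). The minor transcript NM_001171521.1 of that gene had 1.22, 7.05 and 5.52 FPKM.

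The leader was not the same at all stages in 7 genes, namely bbs10, bbs12, bbs2, bbs7, ift22, ift57 and ift74. In ift57 the transcripts NM_001016561.2 and XM_012956983.2 changed places, the first leading with 53.0% at NF10.5 and 55.1% at NF24 and the second with 54.0% at NF16. In bbs12 the transcript XM_004911113.3 had 0.163 FPKM at NF10.5, 5.48 FPKM at NF16 and 0.370 FPKM at NF24, and XM_002941054.4 had 3.81, 4.21 and 0.987 FPKM. The NF16 peak of bbs12 therefore lay in the first of its 2 transcripts, and the lower NF24 value in both. In bbs10 the fall was shared by the 2 transcripts that led at NF10.5: XM_002939948.4 had 20.6, 0.457 and 0.343 FPKM and XM_004912956.3 had 8.64, 0.440 and 0.880 FPKM.

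**Figure D3:**
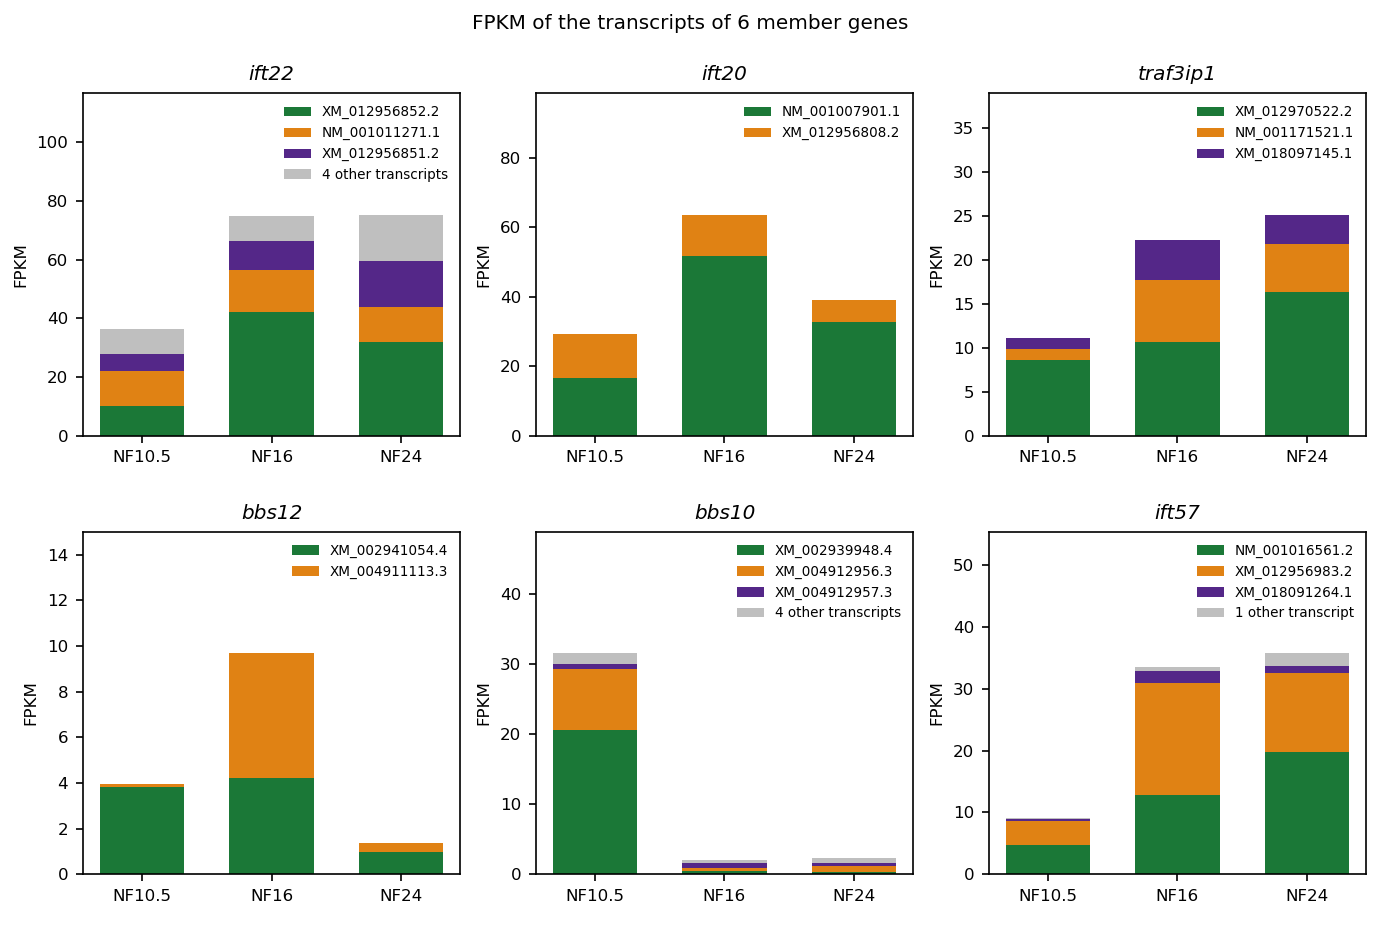
FPKM of the transcripts of 6 members at NF10.5, NF16 and NF24, stacked to the gene's sum, with transcripts beyond the 3 most abundant shown together in grey. In ift22 and ift20 a single transcript (green) holds most of the higher NF16 level, in bbs12 the orange transcript is high at NF16 (5.48 FPKM) and under 0.5 FPKM at the other stages, and in bbs10 the bar of 31.5 FPKM at NF10.5 shrinks to 2.06 FPKM at NF16.

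Genes of the beating axoneme, which are specific to motile cilia, started from another level. The 24 IFT and dynein-2 genes had a median of 8.84 FPKM at NF10.5, 35.9 FPKM at NF16 and 29.1 FPKM at NF24, and the other 20 members 11.3, 11.8 and 8.72 FPKM. The 4 tektins, filament proteins inside the axonemal doublets, had medians of 0.87, 105 and 178 FPKM, and 8 of 9 axonemal dynein heavy chain genes that were compared had 0.16, 23.3 and 33.7 FPKM. At NF10.5, 0 of the 44 members and 2 of 4 tektins and 6 of 8 dynein genes lay below 1 FPKM. Those below 1 FPKM at NF10.5 were compared only because they were higher later, and the one dynein gene that stayed low, dnah11 (0.55, 0.48 and 0.45 FPKM), was not compared, so the size of the axonemal differences is partly fixed by the filter. The median log2 difference at NF16 against NF10.5 was 0.98 for the members, 5.66 for the tektins and 4.25 for the dynein heavy chains. From NF16 to NF24 it was -0.17 for the members, 0.28 for the tektins and 0.36 for the dyneins. These values stand side by side, and the difference between the sets was not tested.

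**Figure D4:**
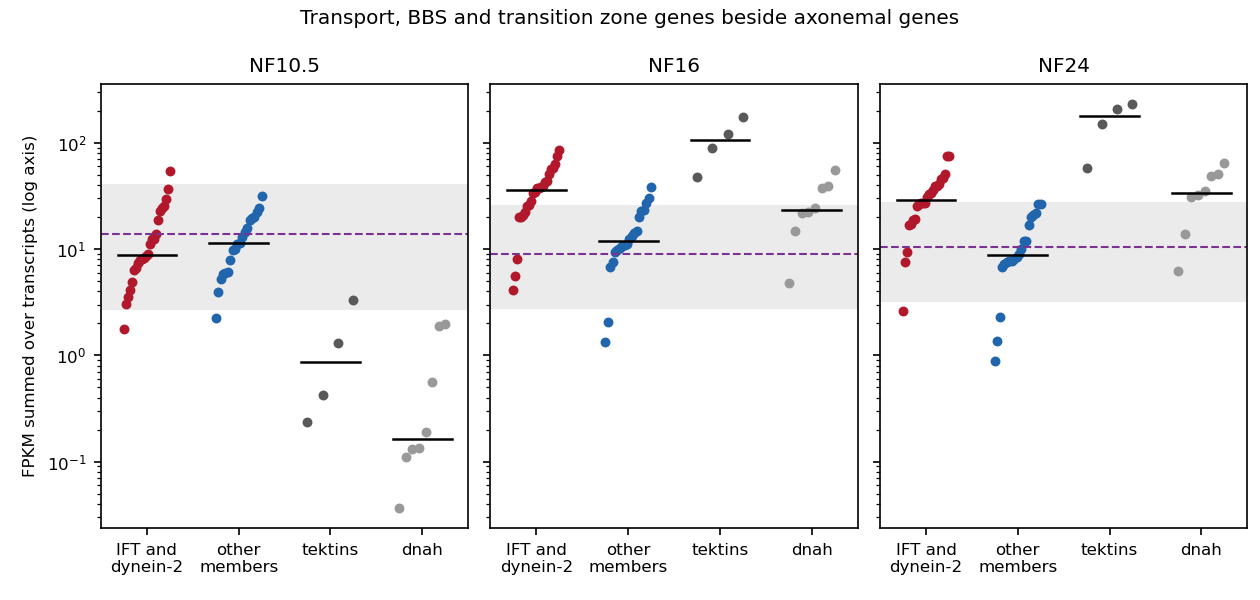
FPKM (log axis) at the 3 stages of the IFT and dynein-2 members (red), the other members (blue), the tektins (dark grey) and the axonemal dynein heavy chains (light grey), with each set's median as a bar, and the median and the interquartile range of all genes compared as a dashed line and a grey band. At NF10.5 the members lie between 1.77 and 54.0 FPKM and the axonemal genes at or below 3.32 FPKM, while at NF24 the tektins reach 231 FPKM and the members 75.8 FPKM.

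A list of other cilium genes outside the rule gave a similar mixture. Of 52 names, 42 were in the table and were compared, 14 were called higher at NF16 against NF10.5, against 20.9% of all genes, and 4 lower, against 39.0%, with a median of 0.45 against -0.57 over all genes. The largest rise was in dzip1l, which encodes a transition zone protein, with 0.11 FPKM at NF10.5, 81.6 FPKM at NF16 and 38.2 FPKM at NF24 (6.22). Both dzip1l and tmem107 lay below 1 FPKM at NF10.5 and were compared only because they were higher later. The size of these 2 differences is thus partly fixed by the filter. The light chain genes dynll1 (3.90), dynlrb2 (3.30) and tctex1d2 (2.41) were also called, the last a light chain of dynein-2, and the first 2 shared with other dyneins. The light chain gene dynlrb1 went the other way and was not called, with 62.2, 42.3 and 37.7 FPKM (-0.55). The transition zone genes tmem107 and tmem237 had 0.97, 13.2 and 11.7 FPKM, and 3.29, 23.1 and 9.79 FPKM. Further transition zone genes called higher at NF16 against NF10.5 were tmem17 (2.23), tmem218 (2.10), ahi1 (1.53) and tmem231 (1.18). Among those not called were b9d1 (-0.14), b9d2 (-0.25) and tmem138 (0.40).

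Lower genes of that list included further transition zone and BBSome-related genes. The 4 were spata7 (21.5, 2.47 and 4.24 FPKM), lztfl1 (129, 34.7 and 35.8 FPKM), whose protein regulates BBSome entry, dzip1 (16.1, 5.76 and 5.55 FPKM) and tmem67 (13.8, 5.27 and 5.69 FPKM). The IFT-B subunit gene ttc30a (IFT70), which the rule does not cover, had 14.3, 56.9 and 57.3 FPKM, a log2 difference of 1.92 at NF16 against NF10.5. Between NF24 and NF16, 6 genes of the list were lower, against 4.84% of all genes, and 0 higher, against 6.91%, with the tubulin-modification gene cep41 at 54.7 FPKM at NF24 and 131 FPKM at NF16 (-1.25) and the centriolar genes sdccag8 (-1.23) and ofd1 (-1.15) among them. At NF24 against NF10.5, 11 of the 42 genes were higher, against 25.4% of all genes, a similar share, and 5 were lower, against 36.9%.

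Regulators of ciliogenesis among the multiciliated cell markers differed in their course. The level of foxj1 was 47.9 FPKM at NF10.5, 98.9 FPKM at NF16 and 58.9 FPKM at NF24, that of rfx2 was 97.5, 109.6 and 48.04 FPKM, and that of rfx3 was 7.16, 6.29 and 3.85 FPKM. At NF16 against NF10.5 foxj1 was called (1.03), and rfx2 (0.17) and rfx3 (-0.16) were not. Between NF24 and NF16 rfx2 was called lower (-1.17). The gene mcidas, which starts the multiciliated program, had 1.23, 50.9 and 2.78 FPKM, called higher at NF16 against NF10.5 (4.54) and lower at NF24 against NF16 (-3.78). The marker ccno, needed for centriole amplification, had 25.8, 50.3 and 5.45 FPKM and was called lower at NF24 against NF16 (-2.99).

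The calls depend in part on how the stages are scaled to each other. Over all genes compared, 2466 were higher and 4586 lower at NF16 against NF10.5, and median-of-ratios scaling, which moved the median of all genes by 0.38, gave 2989 and 3400. For the members the same scaling gave 32 higher and 4 lower in place of 22 and 4, since genes such as ift46, ift81, hspb11 and wdr35 then passed the rule. Of the 4 lower members, 2 were not called under quantile normalization, ttc21b (-0.97) among them, and all 4 stayed below 0 under TPM, median-of-ratios scaling and quantile normalization.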

How the data were processed

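Total RNA of animal caps at 3 stages was depleted of ribosomal RNA and made into directional paired-end libraries, per the labels' protocols. Per the submitters' processing notes, the tools included STAR (version 2.4.2a) and RSEM (version 1.3.0), and the genome build is not given in the sources used here. The authors deposited FPKM for 35047 rows (35028 transcripts, 17647 genes), 1 column per stage, per the file headers. Every value is a multiple of 0.01 divided by 3, so each is taken as a mean of 3 replicates. A limma test was planned; as the deposited columns hold no replicates, a fixed difference of 1 on the log2 scale replaced it, and depth and spread are unknown.

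FPKM was summed per gene, with the 19 rows that repeat a transcript kept, and compared as log2(FPKM + 1) with Python 3.11.15 and pandas 2.3.3 among genes with at least 1 FPKM at 1 stage or more. The calling steps were tested on simulated data. Alternatives were other pseudocounts, filters, scalings, thresholds and transcript choices. Members, roles and lists were chosen with earlier results of these data known. Named genes are the members, with all called ones and the highest and lowest of each role in full, members with the largest changes of transcript share, up to 6 called genes per comparison of the list of other cilium genes, and markers; further non-members were named after their values were seen. Median-of-ratios factors were taken over genes above 0 at all stages. RefSeq's gene table (UCB_Xtro_10.0) held all 44 member symbols and was used for names. Some member genes are counted but not reported here by name.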

Additional observations from a re-analysis of the deposited data

How the results depend on the processing

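Counts of members are given as higher and lower, and counts over all genes compared follow in the same order. Against the reported 22 and 4 (NF16 against NF10.5), 0 and 1 (NF24 against NF16) and 20 and 6 (NF24 against NF10.5), a pseudocount of 0.1 gave 23 and 4, 0 and 2, and 21 and 6. Of all 11771 genes, the reported settings called 2466 and 4586, 813 and 570, and 2984 and 4342. The pseudocount of 0.1 called 2973 and 4996, 1343 and 980, and 3317 and 4660 of them. A pseudocount of 5 gave 17 and 3, 0 and 1, and 12 and 4, with medians of 0.73 and 0.62 in the first and last comparison. It called 1664 and 3333, 271 and 270, and 1974 and 3224 of the 11771 genes. TPM gave 25 and 4, 0 and 1, and 22 and 6, with medians of 1.13 and 0.97 in the first and last comparison. With TPM, 2933 and 4506, 1268 and 632, and 3652 and 4129 of 12530 genes were called. Median-of-ratios scaling gave 32 and 4, 0 and 2, and 22 and 5, with medians of 1.39, -0.35 and 0.99 in the 3 comparisons. This scaling called 2989 and 3400, 579 and 825, and 3293 and 3666 of 11760 genes. Quantile normalization gave 31 and 2, 0 and 3, and 24 and 5, with medians of 1.43, -0.31 and 1.17. Of 11818 genes it called 2760 and 3532, 641 and 790, and 3074 and 3804. A threshold of 0.5 gave 33 and 6, 1 and 8, and 27 and 8. At this threshold 3355 and 6046, 2929 and 1800, and 3872 and 5718 of the 11771 genes were called. The most abundant transcript alone gave 20 and 4, 0 and 1, and 19 and 6. Over 11605 genes it gave 2504 and 4539, 851 and 610, and 3017 and 4317. Low-value filters, repeated rows counted once and a search for members under locus identifiers, which found 0, changed no count of members. A filter at 5 FPKM left 9672 genes, of which 2120 and 4213, 636 and 539, and 2337 and 3934 were called. Adding the gene listed as arl3.1, chosen after seeing the data, gave 23 and 4, 0 and 1, and 21 and 6. No alternative for the transcript rule found a switch. Among 924 recomputed differences of single members, 863 kept their side of the threshold, 37 passed it anew and 24 no longer passed, and no called value changed sign. Scalings moved the median of all genes at NF16 against NF10.5 by 0.15 (TPM), 0.29 (quantile) and 0.38 (median-of-ratios). The cause of the changed counts was not tested. The planned search for RFX motifs in promoters was not run, as no promoter sequences were used here. No paired analysis was possible because each stage is a single column of means. Depth is unknown, so values of a few FPKM, such as those of nphp4 and bbs10 at the later stages, carry no known precision.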

Other observations

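The gene listed as arl3.1, whose transcript RefSeq now places under arl3, encodes the GTPase that releases lipid-modified cargo inside the cilium. It had 10.96 FPKM at NF10.5, 48.6 FPKM at NF16 and 50.1 FPKM at NF24, and was called higher at NF16 and at NF24 against NF10.5 (log2 differences of 2.05 and 2.10). Genes of the other steps of that cargo route were not called higher in any comparison. The carrier gene unc119b had 123, 73.1 and 53.4 FPKM and was called lower at NF24 against NF10.5 (-1.19), the carrier gene pde6d had 8.54, 9.19 and 15.2 FPKM, the ARL3 inactivator gene rp2 had 20.7, 15.4 and 14.2 FPKM, and arl2bp, an effector gene, had 82.6, 79.3 and 41.3 FPKM.

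Genes of planar polarity effectors that act on ciliogenesis were not called at any step. The gene intu had 6.62, 12.3 and 7 FPKM, fuz had 9.03, 18.1 and 12.5 FPKM, and wdpcp had 6.51, 5.40 and 5.74 FPKM. At NF16 against NF10.5 the log2 differences were 0.80 (intu), 0.93 (fuz, just outside the rule) and -0.23 (wdpcp). The median of all genes in that comparison was -0.57. The basal body gene cby1 was called higher at NF16 against NF10.5, with 20.7, 83.5 and 46.3 FPKM at the 3 stages (1.96).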
